A study of Mus musculus with 10 samples.

Results

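The 35 genes described here encode core and accessory subunits of the Polycomb repressive complexes PRC1 and PRC2, and the H2A deubiquitinase USP16. They were picked by gene symbol as a list of complex subunits, by a rule that uses no measured value, although earlier results of these data were known when the list was made. All 35 of them were among the 55291 genes of the deposited table. All 35 passed the filter on low counts that left 17015 genes for testing. They comprise 6 core and 6 accessory PRC2 genes, 2 PRC1 E3 ligases, 6 PCGF genes, 8 genes of canonical PRC1, 6 of variant PRC1 and Usp16. Bulk RNA-seq was made from 10 livers of female mice aged 16 to 20 weeks. Every mouse carried the Cas9 Lox-Stop-Lox allele and received AAV8-U6-sgRNA-TBG-Cre, in which the TBG promoter drives Cre, and so Cas9, in hepatocytes. The guide was either a non-targeting control (NTC) or a guide against Bap1 (sgBap1), and on day 10 the mice were injected with CCl4 in olive oil or with olive oil alone (Veh). Liver was taken 48 hours later, which gave 4 vehicle livers, 2 of each guide (NTC-Veh and sgBap1-Veh), and 6 CCl4 livers, 3 of each guide (NTC-CCl4 and sgBap1-CCl4). Because other liver cells keep Bap1 and the whole right lobe was used, fewer cells of a type and less RNA per cell cannot be told apart in these values.

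PRC2 methylates histone H3 at lysine 27 through EZH1 or EZH2, and PRC1 attaches ubiquitin to histone H2A at lysine 119 through RING1 or RNF2. Both marks accompany gene repression, and each is bound by subunits of the other complex. PRC1 is canonical when it holds a CBX and a PHC subunit, and variant when it holds RYBP or YAF2, with a PCGF protein in each form. BAP1 removes the PRC1 mark, which is why the subunits that write and read it are of interest in livers with a Bap1 guide. In adult hepatocytes EZH1 is known as the PRC2 enzyme of resting cells, while EZH2 is abundant in dividing cells.

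Bap1, the targeted gene (chr14:31251450-31259944, GRCm38), was measured as its counts relative to the TMM-scaled library size (CPM). It stood at 34.8 and 34.8 CPM in the NTC-Veh livers, 17.5 and 19.5 in sgBap1-Veh, 30.1, 31.5 and 29.5 in NTC-CCl4, and 17, 21.8 and 19.1 in sgBap1-CCl4. Every sgBap1 liver was below every NTC liver. The log2 fold change was -0.91 with vehicle (SE 0.12, adjusted p = 0.0208) and -0.65 with CCl4 (SE 0.10, adjusted p = 0.0295, edgeR quasi-likelihood test). The libraries held 3.30e+07 to 5.22e+07 estimated counts. CCl4 shifted the RNA of cell type markers, which can change with cell number or with RNA per cell. The summed level of 10 hepatocyte markers was 121000 to 167000 CPM with vehicle and 68000 to 86900 with CCl4. That of 12 leukocyte markers was 167 to 446 and 726 to 958 CPM. The summed levels of 6 stellate cell markers (83.5 to 115 against 231 to 662 CPM) and 5 cholangiocyte markers (43.2 to 51.4 against 192 to 370) also did not overlap. Those of 6 endothelial markers did (149 to 213 against 197 to 243). The cholangiocyte sum was mostly Spp1 (37.1 to 43.6 CPM with vehicle, 180 to 352 with CCl4), and Krt7 and Krt19 were not called with CCl4 in either genotype. Liver 2 of sgBap1-CCl4 stood apart with 127 CPM of 4 adipocyte markers, against 15.4 or less elsewhere. With CCl4, 9 of 10 hepatocyte markers were called lower in NTC and 6 in sgBap1. Called higher were 8 and 7 of 12 leukocyte, 5 and 4 of 6 stellate, 3 and 3 of 6 endothelial and 2 and 2 of 5 cholangiocyte markers. Cidec, the 1 adipocyte marker tested, was called higher in both genotypes. In NTC-CCl4 livers it gave nearly the whole adipocyte sum (14.7 to 15.4 of 14.8 to 15.4 CPM), so the other adipocyte markers were near 0. In sgBap1-CCl4 liver 2 it gave 56.3 of 127 CPM. In sgBap1 livers the endothelial markers Kdr (-0.40, livers overlapping) and Clec4g (-0.71) and the Kupffer cell marker Clec4f (-1.29) were called lower. All 3 were named after their values were seen. In NTC livers they had 0.12, -0.12 and -0.25 and were not called. Clec4f started higher in sgBap1-Veh (170 and 116 CPM) than in NTC-Veh (88.8 and 61.5), and its means with CCl4 were 58.5 in sgBap1 and 63.2 in NTC. No marker of these lists was at 0 in every liver, and the part of the cell makeup in the results below was not tested.

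CCl4 changed about as large a share of the Polycomb genes as of all genes, and in both directions. In NTC livers 18 of 35 were called at an adjusted p under 0.05 (51.4%), beside 53.9% of all genes tested. Of these 12 were higher, where 27.4% of all genes were higher, and 6 were lower, where 26.6% were lower. In sgBap1 livers 22 of 35 were called (62.9%, all genes 57%), with 13 higher (all genes 29%) and 9 lower (all genes 28%). The median absolute log2 fold change of the 35 was 0.37 in both genotypes, beside 0.57 and 0.60 for all genes. These 2 comparisons share no livers. In both of them 14 genes were called, 8 higher in both and 6 lower in both, and none in opposite directions. Of all genes 45.9% were called in both, 23% higher in both, 22.9% lower in both and 0.123% in opposite directions, so the members' counts are near the background. Without sgBap1-CCl4 liver 2, which stood apart above, 19 were called in NTC and 20 in sgBap1. Another 4 were called in NTC alone, 8 in sgBap1 alone and 9 in neither. The direction depends on scaling: with library size alone in place of TMM the median gene moved by 0.50 and 0.52 on the log2 scale, and the calls became 24 higher and 2 lower in NTC, and 23 higher and 2 lower in sgBap1. Each change below is therefore relative to the bulk of genes.

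**Figure D1:**
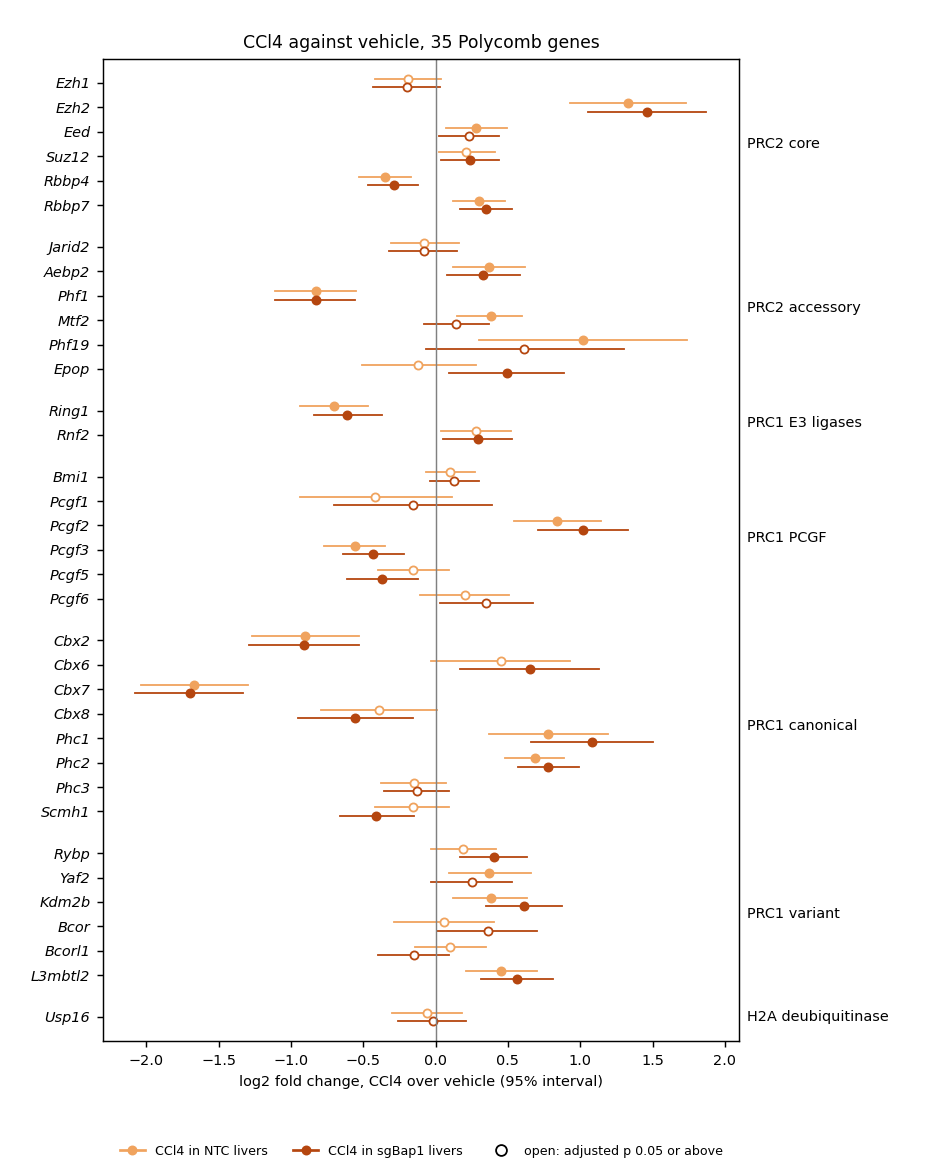
Log2 fold change of CCl4 over vehicle (x axis) for the 35 genes by role, in NTC livers (light) and sgBap1 livers (dark), as points with 95% intervals from the edgeR fit under TMM scaling; filled points have an adjusted p under 0.05. Cbx7 lies furthest left (-1.67 and -1.70) and Ezh2 furthest right (1.33 and 1.46), and with library size alone the fold changes move right, so that Rbbp4, Ezh1 and others that are negative here become positive.

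Within the PRC2 core, CCl4 raised Ezh2 and left Ezh1 short of the threshold. Ezh2 (chr6:47530139-47595341, minus strand) encodes the methyltransferase of dividing cells. Its level was 5.66 and 4.90 CPM in the NTC-Veh livers, 4.90 and 4.19 in sgBap1-Veh, 15.1, 10.7 and 14.2 in NTC-CCl4, and 11.9, 14.3 and 11.4 in sgBap1-CCl4. Every CCl4 liver lay above every vehicle liver. The increase was 2.52-fold in NTC (log2 1.33, SE 0.18, adjusted p = 0.000143) and 2.75-fold in sgBap1 (log2 1.46, SE 0.18, adjusted p = 8.35e-05). Ezh1 (chr11:101191115-101226463, minus strand), the other PRC2 methyltransferase, was at 19.5 and 20.8 CPM in the NTC-Veh livers and 22.4 and 18.3 in sgBap1-Veh. After CCl4 it was at 17.2, 18.7 and 17 CPM in NTC and 18.4, 16.8 and 18.1 in sgBap1. The NTC livers did not overlap and the sgBap1 livers did. Its log2 fold changes of -0.19 and -0.20 were not called (adjusted p = 0.143 and 0.132) and turned to 0.28 and 0.28 with library size alone. Without sgBap1-Veh liver 2 the second was -0.33, with an adjusted p of 0.0365. Per kilobase of annotated exon, Ezh2 made up 19.6% to 24.4% of the sum of both genes with vehicle and 38.9% to 49.5% with CCl4.

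The promoter stretches of Ezh2 and of the 2 other genes with an E2F core are shown because E2F factors drive genes of the cell cycle, and those of Ezh1 and Cbx7 because these genes did not rise. Sequence comes from RefSeq windows on GRCm38.p6, which reach from upstream of each start to shortly after it and were matched for 30 of the 35 genes (not for Epop, Pcgf1, Cbx2, Rybp and Yaf2). Positions count from the start site, with 1 as its first base, and capitals mark matches on either strand to the E2F core (TTTCCCGC, TTTGGCGC, TTTCGCGC or TTTGCCGC), the CHR element (TTTGAA or TTCGAA) or the NF-Y box (CCAAT). No printed match overlaps another.
Ezh2, chr6:47595059-47595130, minus strand: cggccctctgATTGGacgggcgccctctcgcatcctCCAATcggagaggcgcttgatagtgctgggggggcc
Ezh2, chr6:47595006-47595030, minus strand, in an exon: gcgTTTGGCGCtcggtccggtcgcg
Suz12, chr11:79992876-79992916, plus strand: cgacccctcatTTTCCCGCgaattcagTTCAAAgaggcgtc
Phf19, chr2:34914161-34914201, minus strand: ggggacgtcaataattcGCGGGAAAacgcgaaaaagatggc
Ezh1, chr11:101226464-101226563, minus strand: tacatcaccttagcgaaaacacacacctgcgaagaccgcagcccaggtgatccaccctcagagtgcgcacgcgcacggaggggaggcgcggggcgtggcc
Cbx7, chr15:79932769-79932846, minus strand: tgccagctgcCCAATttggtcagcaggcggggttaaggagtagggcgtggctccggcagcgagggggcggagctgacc

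An E2F core was found for 3 of the 30 genes (10%), beside 2.26% of 32851 windows of all genes, where a gene can have several windows. In Ezh2 it spans bases 4 to 11, within an annotated exon. In Suz12 it spans bases -219 to -212, outside any gene, and in Phf19 bases -208 to -201, within Gm13448 but in no exon. The printed upstream stretches of Ezh2 and Cbx7 lie within those genes and outside their exons, and that of Ezh1 lies in no gene. A CHR element was found for 7 genes (23.3%, all windows 19.2%) and an NF-Y box for 14 (46.7%, all windows 37.4%). Cbx7, which fell, has a CHR element at bases -54 to -49, outside its printed stretch, and Ezh2 has none. These matches are letters in a window and no evidence of binding.

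The remaining core genes moved less than Ezh2 did. Eed, whose product binds methylated H3K27, was called higher in NTC (log2 0.28, adjusted p = 0.0262) and had 0.23 in sgBap1 (adjusted p = 0.0546). Suz12, the scaffold of PRC2, had log2 0.21 in NTC (adjusted p = 0.0645) and was called higher in sgBap1 (0.24, adjusted p = 0.0424). The histone-binding paralogs Rbbp4 and Rbbp7 were called in opposite directions. Rbbp4 ranged from 96.6 to 111 CPM with vehicle and from 78.4 to 92.9 with CCl4, with log2 fold changes of -0.35 and -0.29 that turn to 0.13 and 0.18 with library size alone. Rbbp7 ranged from 59.4 to 67.1 CPM with vehicle and from 76.3 to 86.2 with CCl4 (log2 0.30 and 0.35). Both proteins also belong to other chromatin complexes, and 6.97% of the 50-base stretches of Rbbp7 also occur in Gm6382.

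Among the 6 accessory PRC2 genes, Phf1 was called lower and Aebp2 higher in both genotypes. Phf1 (chr17:26933052-26937908, plus strand) encodes a Polycomb-like protein that recruits PRC2. It stood at 18.8 and 22.1 CPM in the NTC-Veh livers, 24.8 and 20.8 in sgBap1-Veh, 10.3, 11.5 and 12.6 in NTC-CCl4, and 12.2, 12.2 and 14 in sgBap1-CCl4. Vehicle and CCl4 livers did not overlap. The log2 fold change was -0.83 in both genotypes (SE 0.13, adjusted p = 0.000317 and 0.000285), and -0.36 in both with library size alone. Exons of Phf1 overlap those of Cuta on the opposite strand. Its paralogs went the other way in NTC livers, where Mtf2 (log2 0.38, adjusted p = 0.0092) and Phf19 (1.02, SE 0.33, adjusted p = 0.0221) were called higher. In sgBap1 livers Mtf2 had 0.14 and Phf19 0.61, neither called (adjusted p = 0.251 and 0.115). Phf19 was the scarcest member, at 0.599 to 2.60 CPM.

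Aebp2 (chr6:140622663-140678472, plus strand), a zinc-finger cofactor of PRC2, was at 27.8 and 25.6 CPM in the NTC-Veh livers and 26.7 and 35.5 in sgBap1-Veh. With CCl4 it was at 33.2, 35.8 and 34.6 CPM in NTC and 38.2, 39.4 and 39.1 in sgBap1. The CCl4 livers of each genotype lay above its vehicle livers, but sgBap1-Veh liver 2 reached the NTC-CCl4 range. The log2 fold changes were 0.37 (adjusted p = 0.0174) and 0.33 (adjusted p = 0.0297). The call in NTC was lost without NTC-Veh liver 2 (0.32, adjusted p = 0.118). The call in sgBap1 was lost without sgBap1-Veh liver 1 (0.14, adjusted p = 0.286) and without each sgBap1-CCl4 liver (0.31 to 0.34, adjusted p = 0.053 to 0.0605). Jarid2, which helps to recruit PRC2, was not called in either genotype (log2 -0.08 in both). Epop, a cofactor that links PRC2 to elongin, had -0.12 in NTC and was called higher in sgBap1 (0.49, adjusted p = 0.0373).

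The 2 E3 ligases of PRC1 moved apart. Ring1 (chr17:34020792-34024680, minus strand) was at 19.7 and 20.5 CPM in the NTC-Veh livers, 19.5 and 18.2 in sgBap1-Veh, 12.1, 13.8 and 11.2 in NTC-CCl4, and 12.5, 12.9 and 11.7 in sgBap1-CCl4. All CCl4 livers lay below all vehicle livers. Ring1 fell by 0.70 on the log2 scale in NTC (SE 0.10, adjusted p = 0.000279) and by 0.61 in sgBap1 (SE 0.11, adjusted p = 0.000708), which with library size alone was -0.23 and -0.12 and not called. Rnf2 (chr1:151458004-151500955, minus strand), the main ligase in most cell types, was at 18.5 and 17.5 CPM in the NTC-Veh livers and 16.4 and 19.5 in sgBap1-Veh. With CCl4 it was at 24.1, 20 and 21.3 CPM in NTC and 22.2, 22.4 and 21.2 in sgBap1. Each CCl4 liver lay above every vehicle liver. Its log2 fold changes of 0.28 and 0.29 fell on either side of the threshold (adjusted p = 0.0501 and 0.0417). The call in NTC was gained (adjusted p = 0.0314 to 0.04) without either sgBap1-Veh liver (log2 0.28) or NTC-CCl4 liver 2 (0.34). The call in sgBap1 was lost without either NTC-Veh liver (0.29), sgBap1-Veh liver 1 (0.17), NTC-CCl4 liver 3 (0.29) or any sgBap1-CCl4 liver (0.28 to 0.30), with adjusted p of 0.0522 to 0.296.

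PCGF proteins partner the ligases and define the forms of PRC1. Pcgf2 (chr11:97688823-97700497, minus strand), a paralog of Bmi1 in canonical PRC1, was at 3.21 and 3.52 CPM in the NTC-Veh livers, 2.93 and 3.07 in sgBap1-Veh, 5.86, 6.39 and 5.83 in NTC-CCl4, and 6.4, 6.21 and 5.61 in sgBap1-CCl4. The vehicle livers lay well below all CCl4 livers. The rise was 1.79-fold in NTC (log2 0.84, SE 0.14, adjusted p = 0.000489) and 2.03-fold in sgBap1 (log2 1.02, SE 0.14, adjusted p = 0.000152). Pcgf3 (chr5:108461232-108506976, plus strand), of a variant PRC1, moved the other way, from 36, 41, 39.4 and 33.5 CPM in the vehicle livers to 25.4, 27.1 and 25.9 in NTC-CCl4 and 28, 27.1 and 26.2 in sgBap1-CCl4. No CCl4 liver reached the vehicle range. Its log2 fold changes of -0.56 (SE 0.09, adjusted p = 0.000621) and -0.43 (SE 0.09, adjusted p = 0.00304) were -0.09 and 0.05 with library size alone. Pcgf5, a close paralog of Pcgf3, was called lower in sgBap1 (-0.37, adjusted p = 0.0162, and 0.11 with library size alone), with -0.16 in NTC. Bmi1 (log2 0.10 and 0.13), Pcgf1 (-0.42 and -0.16) and Pcgf6 (0.20 and 0.35) were called in neither. Stretches of 50 bases shared with Gm5946 or Gm8930 made up 16.7% of Bmi1 and 15.3% of Pcgf1, so their counts are less certain.

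In canonical PRC1 the CBX genes, whose products bind methylated H3K27, contained the largest decrease of the 35 genes. Cbx7 (chr15:79915807-79971119, minus strand) was at 13.9 and 18.6 CPM in the NTC-Veh livers, 14.9 and 12.1 in sgBap1-Veh, 5.18, 5.13 and 4.94 in NTC-CCl4, and 3.88, 4.90 and 3.63 in sgBap1-CCl4. The highest CCl4 liver was far below the lowest vehicle liver. Cbx7 levels with CCl4 were 0.313 of those with vehicle in NTC (log2 -1.67, SE 0.17, adjusted p = 2.05e-05) and 0.307 in sgBap1 (log2 -1.70, SE 0.17, adjusted p = 1.81e-05). With library size alone they remained called, at -1.21 and -1.22. Exons of Cbx7 overlap those of Apobec3 on the opposite strand.

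Cbx2 (chr11:119022962-119031270, plus strand) was at 10.2 and 13.4 CPM in the NTC-Veh livers, 10.9 and 9.84 in sgBap1-Veh, 5.56, 7.72 and 5.62 in NTC-CCl4, and 5.58, 5.43 and 5.61 in sgBap1-CCl4. All 6 CCl4 livers were below the 4 vehicle livers. Its log2 fold changes were -0.90 and -0.91 (SE 0.17, adjusted p = 0.00121 and 0.00114), and -0.43 in both and no longer called with library size alone. Cbx8 had -0.39 in NTC and was called lower in sgBap1 (-0.56, adjusted p = 0.0223, and -0.07 with library size alone). Cbx6 was called higher in sgBap1 (0.65, adjusted p = 0.0261) and had 0.45 in NTC. Its highest liver, at 13.4 CPM, was the sgBap1-CCl4 liver with adipocyte markers, and it shares exons with Npcd on the same strand.

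The PHC genes encode the polymerizing subunits of canonical PRC1. Phc1 (chr6:122317731-122340561, minus strand) was at 3.05 and 3.24 CPM in the NTC-Veh livers, 3.07 and 2.51 in sgBap1-Veh, 5.39, 4.66 and 6.19 in NTC-CCl4, and 6.06, 6.66 and 5.06 in sgBap1-CCl4. Phc2 (chr4:128654702-128752881, plus strand) was at 29.4 and 26.3 CPM in the NTC-Veh livers, 28.3 and 26.9 in sgBap1-Veh, 41.9, 44.8 and 47.9 in NTC-CCl4, and 47, 50.2 and 44.6 in sgBap1-CCl4. For both genes each CCl4 liver was above each vehicle liver. Phc1 rose by 0.78 (SE 0.19, adjusted p = 0.00502) and 1.08 (SE 0.19, adjusted p = 0.000755) on the log2 scale, and Phc2 by 0.69 (SE 0.09, adjusted p = 0.000151) and 0.78 (SE 0.09, adjusted p = 6.51e-05). Phc3 was called in neither genotype (-0.15 and -0.13). Scmh1, a further subunit of canonical PRC1, had -0.16 in NTC and was called lower in sgBap1 (-0.41, adjusted p = 0.0115, and 0.07 with library size alone).

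**Figure D2:**
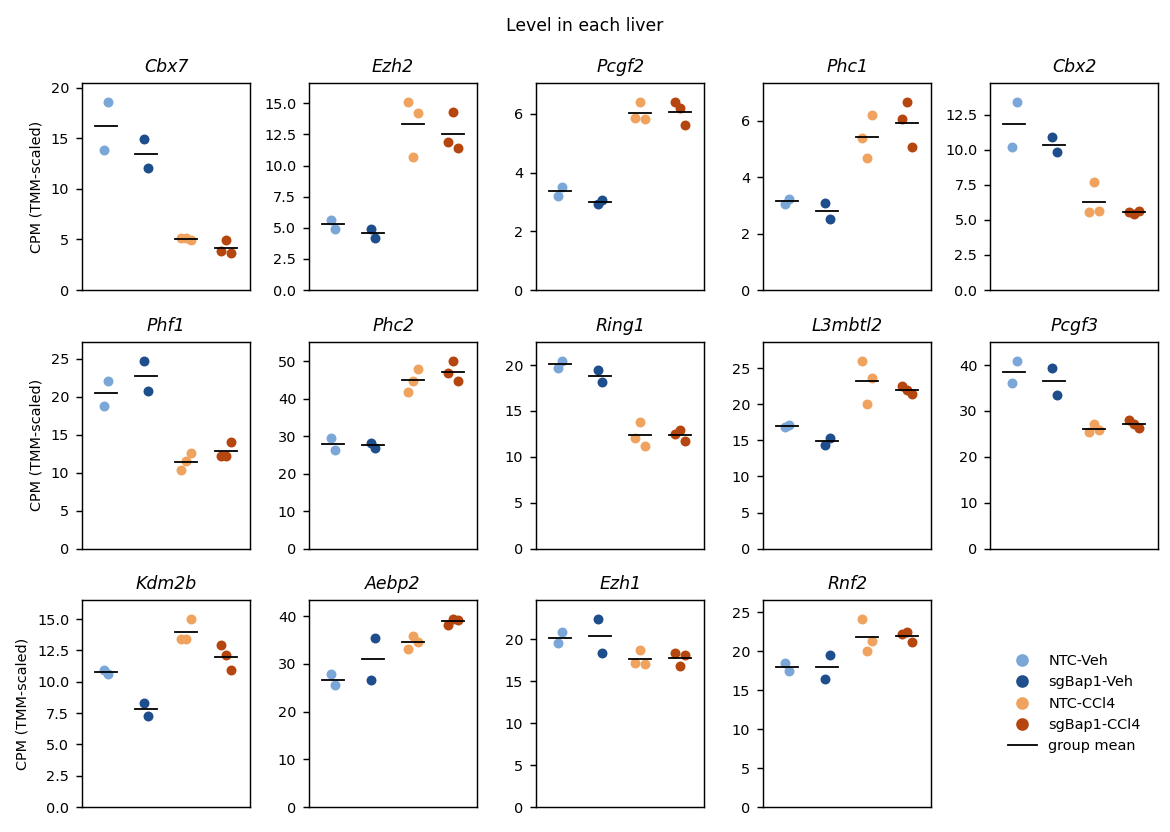
Level in CPM after TMM scaling (y axis, from 0) of the 14 genes with values given for each liver, with 1 point per liver with the vehicle groups before the CCl4 groups and NTC before sgBap1 in each, and a black line at the group mean. Cbx7 drops from 12.1 to 18.6 CPM with vehicle to 3.63 to 5.18 with CCl4, while Ezh2 goes from 4.19 to 5.66 up to 10.7 to 15.1, and Kdm2b is lower in the sgBap1 livers than in the NTC livers of the same treatment (7.30 to 8.32 against 10.6 to 10.9 CPM with vehicle).

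In variant PRC1, 3 of 6 genes were called in each genotype (50%), beside 53.9% of all genes in NTC and 57% in sgBap1. Each called gene was higher, as were 27.4% and 29% of all genes. L3mbtl2 (chr15:81663889-81688315, plus strand), a reader in the PCGF6 complex, was at 16.9 and 17.1 CPM in the NTC-Veh livers, 14.4 and 15.4 in sgBap1-Veh, 26.1, 20.1 and 23.7 in NTC-CCl4, and 22.5, 22 and 21.5 in sgBap1-CCl4. The CCl4 livers all lay above the vehicle livers. Its log2 fold changes were 0.45 (SE 0.11, adjusted p = 0.0057) and 0.56 (SE 0.11, adjusted p = 0.00163). Kdm2b (chr5:122870665-122989823, minus strand), which brings the PCGF1 complex to unmethylated CpG islands, was at 10.9 and 10.6 CPM in the NTC-Veh livers, 8.32 and 7.30 in sgBap1-Veh, 13.4, 13.4 and 15 in NTC-CCl4, and 12.9, 12.1 and 10.9 in sgBap1-CCl4. CCl4 livers were above vehicle livers within each genotype, while sgBap1-CCl4 liver 3 was level with an NTC-Veh liver. The log2 fold changes were 0.38 (SE 0.11, adjusted p = 0.0177) and 0.61 (SE 0.12, adjusted p = 0.00133). In NTC the call was lost without NTC-Veh liver 1 (0.39, adjusted p = 0.0671), NTC-Veh liver 2 (0.36, adjusted p = 0.0903) or NTC-CCl4 liver 3 (0.32, adjusted p = 0.0576). The paralogs Rybp and Yaf2 were each called higher once: Yaf2 in NTC (0.37, adjusted p = 0.0286; 0.25 in sgBap1) and Rybp in sgBap1 (0.40, adjusted p = 0.00735; 0.19 in NTC). Counts of Rybp and Kdm2b are less certain too, since 8.93% of the 50-base stretches of Rybp occur in Rybp-ps and 5.9% of those of Kdm2b occur in other genes, and exons of Kdm2b overlap those of Gm44574 on the same strand. The corepressors Bcor (0.06 and 0.36) and Bcorl1 (0.10 and -0.15) were called in neither.

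Usp16 encodes an enzyme that, like BAP1, removes ubiquitin from H2A. It ranged from 29.7 to 37.8 CPM over all 10 livers and was called in no comparison under TMM scaling. Its log2 fold changes with CCl4 were -0.06 (95% interval -0.30 to 0.18) and -0.02 (-0.26 to 0.21), and 0.41 and 0.46 with library size alone, where it was called higher in both genotypes (adjusted p = 0.0115 and 0.00614, edgeR) by an amount close to the shift of the median gene under that scaling.

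Ratios between paralogs in the same liver hardly depend on scaling between libraries, apart from the pseudocount. For 5 pairs, the log2 ratio of CPM per kilobase of exon (pseudocount 0.5) was compared between 6 CCl4 and 4 vehicle livers by a two-sided exact permutation test, for which 0.00476 is the smallest possible p. The Ezh2/Ezh1 ratio was -1.21 and -1.42 in NTC-Veh, -1.51 and -1.39 in sgBap1-Veh, -0.02, -0.52 and -0.09 in NTC-CCl4, and -0.38, -0.06 and -0.41 in sgBap1-CCl4. CCl4 thus moved it by 1.13 without overlap (exact permutation p = 0.00476, adjusted over the 5 ratios 0.00595), and Ezh1 remained the higher of the pair in each liver. Rnf2/Ring1 went from -0.46 ± 0.09 (SD, n = 2) in NTC-Veh and -0.38 ± 0.22 (n = 2) in sgBap1-Veh to 0.43 ± 0.22 (n = 3) in NTC-CCl4 and 0.43 ± 0.03 (n = 3) in sgBap1-CCl4. Per kilobase, the order of the 2 ligases was therefore reversed in every liver after CCl4 (difference 0.85, exact permutation p = 0.00476, adjusted 0.00595). This order depends on the exon lengths: in CPM, Rnf2 (19.5) was already above Ring1 (18.2) in sgBap1-Veh liver 2. Rbbp4/Rbbp7 fell by 0.62 and Bmi1/Pcgf2 fell by 0.55, each without overlap and with the same exact permutation p and adjusted p. Rybp/Yaf2 differed by -0.02 (exact permutation p = 0.905). Between genotypes, permuted within treatment, the differences ranged from -0.19 (Rybp/Yaf2) to 0.05, with an adjusted exact permutation p of 0.633 for each of the 5 ratios and a smallest possible p of 0.0167.

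**Figure D3:**
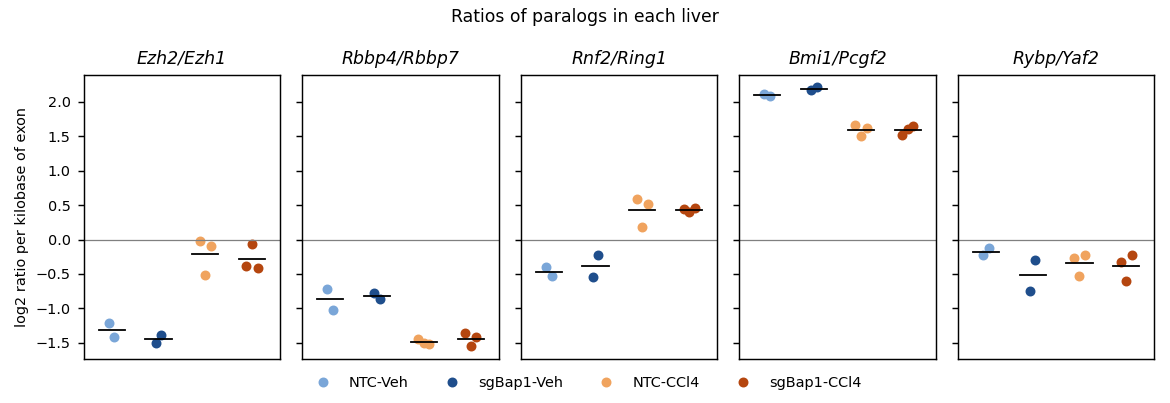
Log2 ratio of paralogs per kilobase of annotated exon (y axis) in each liver, with 1 panel per pair, points coloured by group and black lines at group means. The CCl4 livers are separate from the vehicle livers for Ezh2/Ezh1, Rbbp4/Rbbp7, Rnf2/Ring1 and Bmi1/Pcgf2, with differences of 1.13, -0.62, 0.85 and -0.55, and overlap them for Rybp/Yaf2.

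Levels between genes were compared only per kilobase of annotated exon. In each of the 4 groups Rbbp7 (21.6 CPM per kilobase in NTC-Veh, 28.7 in sgBap1-CCl4) and Rbbp4 (11.6 and 10.3) had the highest levels and Phf19 (0.191 and 0.418) the lowest. The gene after Rbbp4 differed between groups: it was Suz12 in NTC-Veh (6.57) and NTC-CCl4 (7.62), Phf1 in sgBap1-Veh (6.54) and Yaf2 in sgBap1-CCl4 (7.53). These orders are of group means and were not tested. Within the CBX genes the order changed with treatment: in NTC-Veh livers Cbx2 (2.77) and Cbx7 (2.50) stood above Cbx8 (1.68) and Cbx6 (0.590), and in NTC-CCl4 livers Cbx7 (0.784) was level with Cbx6 (0.803). These levels rest on annotated exon lengths and not on the transcripts that each liver used.

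The guide against Bap1 left the RNA of all 35 genes without a call. In vehicle livers 0 of 35 were called by edgeR, beside 0.406% of all genes, with 2 at an unadjusted p under 0.05 (Kdm2b and Bcor, where 12.3% of all genes were). In CCl4 livers 0 of 35 were called, beside 0.329% of all genes, with 6 at an unadjusted p under 0.05 (Rbbp4, Mtf2, Epop, Scmh1, Kdm2b and Bcorl1, where 14% of all genes were). DESeq2 also called 0 in both, beside 3.64% and 3.08% of all genes. With so few genes called at all, 0 of 35 is near the background. The intervals limit the size of a change in bulk liver RNA, and not of one in edited hepatocytes alone. In vehicle livers the 95% interval of 34 of 35 genes stayed within 2-fold in either direction (64.6% of all genes), the exception being Phf19 (-0.32 to 1.36). In CCl4 livers all 35 did (76.6% of all genes). For Ezh2 the intervals of the log2 fold change were -0.66 to 0.23 with vehicle and -0.41 to 0.25 with CCl4.

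Averaged over both treatments, which uses the same livers again, 0 of 35 were called by edgeR (all genes 0.411%) and 7 had an unadjusted p under 0.05, which 15.8% of all genes had, so this count is near the background. Among the 7 were 3 variant PRC1 genes, Kdm2b (log2 -0.34, adjusted p = 0.0976), Bcor (-0.29, adjusted p = 0.231) and Bcorl1 (-0.21, adjusted p = 0.231). Kdm2b was the only one of the 35 that DESeq2 called in this comparison (lower, adjusted p = 0.0217), where DESeq2 called 4.33% of all genes. Its values above show both sgBap1-Veh livers below both NTC-Veh livers, and the sgBap1-CCl4 livers below the NTC-CCl4 livers. The 4 others, Eed, Rbbp4, Aebp2 and Cbx7, had log2 fold changes of 0.15, 0.14, 0.20 and -0.28 (adjusted p = 0.262 to 0.314). With vehicle the genotypes also did not overlap in the summed levels of leukocyte markers (167 to 230 CPM in NTC, 333 to 446 in sgBap1), hepatocyte markers (135000 to 167000 and 121000 to 126000) and proliferation genes (82.9 to 86.1 and 104 to 118). The same held for genes of the E2F and RB families (115 to 118 and 104 to 111) and 39 Hox genes (5.54 to 5.61 and 7.22 to 7.24). With 2 livers against 2, such a separation by itself arises easily by chance. Of the 12 leukocyte markers, however, edgeR called 2 higher in sgBap1-Veh (16.7%, all genes 0.276%). At an unadjusted p under 0.05 were 9 of the 12, where 12.3% of all genes were. No gene of the other lists with separate sums was called there. With CCl4 the sums of all these lists overlapped. Those of cholangiocyte markers (192 to 248 and 272 to 370) and of other H2A deubiquitinases (149 to 150 and 133 to 142) did not. Most of the cholangiocyte sum was Spp1 (180 to 234 and 260 to 352 CPM). The part of these sums in the values above was not tested. The interaction, which asks whether the CCl4 change differs between genotypes, was called by edgeR for 0 of 35 (all genes 0%) and by DESeq2 for 0 (all genes 2.7%), with 1 at an unadjusted p under 0.05 (all genes 10.4%). That gene was Epop, whose CCl4 log2 fold change was 0.61 higher in sgBap1 (95% interval 0.05 to 1.17, adjusted p = 0.436). The 12 genes called in only 1 genotype are thus not shown to respond differently.

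**Figure D4:**
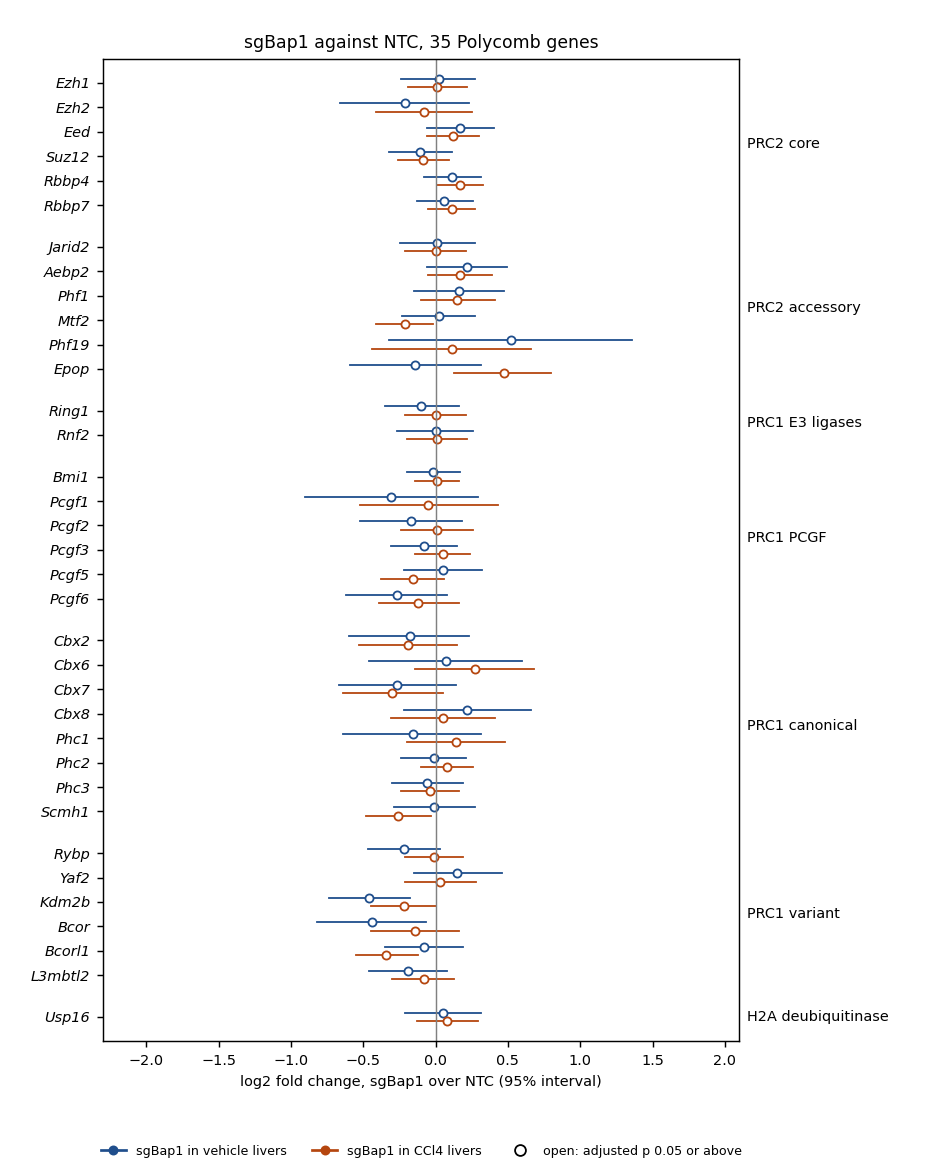
Log2 fold change of sgBap1 over NTC (x axis) for the 35 genes by role, with vehicle (blue) and with CCl4 (brown), as points with 95% intervals from the edgeR fit; all points are open, since no adjusted p was under 0.05. Most intervals cross 0, Kdm2b and Bcor lie left of 0 with vehicle (-0.46 and -0.44), and Phf19 has the widest interval (-0.32 to 1.36).

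Other genes of the Polycomb system give the setting. Of 11 PR-DUB genes (BAP1, its ASXL partners and cofactors), 10 were tested and 4 were called with CCl4 in each genotype. That is 40%, beside 53.9% of all genes in NTC and 57% in sgBap1. Asxl1, the BAP1 cofactor, was higher (log2 0.55 and 0.56) and Ogt and Kdm1b were lower (-0.58 and -0.57, -0.58 and -0.61). Between genotypes, Bap1 itself was the 1 PR-DUB gene called. Of 23 tested genes among 24 other partners, 8 were called in NTC (34.8%) and 9 in sgBap1 (39.1%), again below the shares of all genes. Of these, 5 were higher and 3 lower in NTC, and 5 were higher and 4 lower in sgBap1. Auts2 of the PCGF3 and PCGF5 complexes, scarce at 0.381 to 2.29 CPM, was higher in both (log2 1.55 and 1.60). Tfdp2 (-0.96 and -0.88) and Skp1a (-0.71 and -0.73) were lower in both. So was Fbrsl1 (-0.64 and -0.53), named here after its values were seen. Of 8 tested genes among 9 H3K27 demethylases and their MLL partners, Kmt2c was called lower in both genotypes (-0.51 and -0.39) and Kdm6a higher in sgBap1 (0.34). Of 6 tested genes among 7 other H2A deubiquitinases, Usp12 (0.61) was called higher and Usp21 (-0.23) lower in NTC, and edgeR called 0 in sgBap1, with 2 at an unadjusted p under 0.05. The shares called among the demethylases and deubiquitinases were 12.5% and 33.3% in NTC and 25% and 0% in sgBap1, below those of all genes. No gene of the last 3 lists was called by edgeR between genotypes (all genes 0.406% with vehicle and 0.329% with CCl4). At an unadjusted p under 0.05 were 4 in vehicle livers and 3 in CCl4 livers, where 12.3% and 14% of all genes were.

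Some classical Polycomb targets and all listed proliferation genes were called higher with CCl4. The sum of 39 Hox genes was 5.54 to 7.24 CPM with vehicle and 8.22 to 16.6 with CCl4, highest in the sgBap1-CCl4 liver with adipocyte markers. Of the 39 genes 11 were at 0 in every liver and 12 passed the filter. Of these 12, 5 were called higher in NTC (all genes 27.4%) and 6 in sgBap1 (all genes 29%), and none lower. Genes scarce with vehicle, such as Hoxb8 (0 to 0.0554 CPM, and 0.0853 to 0.298 with CCl4), passed the filter through CCl4 livers. They could hardly be called lower, so the lack of lower calls is partly set by the filter. The others included Hoxb4, with log2 fold changes of 0.12 and -0.34 and no call. The Ink4 genes Cdkn2a and Cdkn2b, named here after their values were seen, were scarce, with a summed level of 0.0749 to 0.377 CPM with vehicle and 0.786 to 1.26 with CCl4, where 3 counts correspond to 0.0511 to 0.112 CPM. Both were called higher in both genotypes, but both also passed the filter through their CCl4 livers, so a lower call was hardly possible. All 20 proliferation genes were called higher in both genotypes, with a summed level of 82.9 to 118 CPM with vehicle and 559 to 820 with CCl4. Of 11 genes of the E2F and RB families, 8 were called in NTC (7 higher) and 9 in sgBap1 (8 higher), with E2f1 at log2 2.65 and 2.47 and E2f2 at 2.93 and 2.19. The rise of Ezh2 went together with these genes in the same livers, and neither their part nor that of leukocytes in it was tested.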

How the data were processed

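The authors aligned reads of TruSeq Stranded mRNA libraries with STAR 2.7.6a to GRCm38 and counted them with Salmon 1.4.0 on GENCODE vM25, and the deposited table holds estimated counts per gene symbol, without normalization (tools per the submitters' processing notes and the methods). The strand setting of Salmon is not given in the sources used here, so reads of genes that overlap on opposite strands may not be separated. Of the values 9.22% were not whole, and counts were rounded. All 10 columns were matched to livers by group and replicate number. The labels number the livers without naming mice, so p-values measure the spread between these samples. No batch is named, so none was tested.

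Counts were analysed in R 4.3.3 with edgeR 4.0.16: filterByExpr on the 4 groups, TMM, estimateDisp and glmQLFit (robust = TRUE) in one model of all 10 livers. Contrasts were tested by the two-sided quasi-likelihood test with Benjamini-Hochberg adjustment over 17015 genes and a threshold of 0.05. Intervals are at 95%. The steps were tested on simulated data. The members were picked by symbol and not by value, but they, the context lists and the tests were chosen with earlier results of these data known. Values for each liver are given for the 12 genes called in both CCl4 comparisons with the largest mean absolute log2 fold change, and for Ezh1, Ezh2, Ring1 and Rnf2. Of each context list, at most 4 genes with the largest such mean and at least 50 counts on average could be named, and the few context genes named outside this rule are marked as chosen after their values were seen. Lengths, positions and shared 50-base stretches were taken from the vM21 release on the same build, and the vM25 annotation was not used here. Libraries of a group differed by more than sampling noise (mean chi-square per gene 15.3 to 90.5, where 1 is expected). Alternatives were DESeq2 size factors, library size alone, other filters, DESeq2 1.42.0, the edgeR 3 form of the test, the replicate number as a block, only the livers compared, other pseudocounts, and each liver left out. A lone vehicle liver left in a group is assumed to vary like the other groups.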

Additional observations from a re-analysis of the deposited data

How the results depend on the processing

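The number of the 35 genes called stayed within 1.5 times its value under all alternatives for both CCl4 comparisons (17 to 26 in NTC and 17 to 25 in sgBap1 over the alternatives that keep every liver). Without 1 liver in turn the ranges were 13 to 19 and 15 to 22. For the genotype comparisons and the interaction the number stayed at 0, except that DESeq2's Wald test called 1 gene (Kdm2b) averaged over treatments. No pairing by replicate number was seen: deviations of same-numbered livers from their group means correlated at -0.09 with vehicle and at -0.01, 0 and -0.23 with CCl4. No CCl4 liver correlated best with its own number. The 2 deviations of a vehicle group mirror each other and few livers were compared, so this check cannot exclude a pairing. With the replicate number as a block 18 genes were called in NTC, 18 in sgBap1 and 0 in the other comparisons, and Aebp2 (0.33, adjusted p = 0.053) and Rnf2 (0.31, adjusted p = 0.0742, edgeR) lost their call in sgBap1. With library size alone, Ezh1 was reversed to 0.28 in NTC and 0.28 in sgBap1, and Pcgf3 to 0.05 in sgBap1, all not called. Ratios with a difference near 0 changed sign without 1 liver: Rbbp4/Rbbp7 between genotypes ranged from -0.02 to 0.12, Rnf2/Ring1 from -0.03 to 0.12, and Rybp/Yaf2 with CCl4 from -0.15 to 0.06. The other ratios, and all ratios with other pseudocounts or without length scaling, kept their direction and their side of the threshold. Ezh2 had at least 112 counts in each liver, and each vehicle group held 2 livers. Over all genes DESeq2 called 548, 480, 674 and 406 in vehicle livers, CCl4 livers, the average and the interaction, where edgeR called 69, 56, 70 and 0, and edgeR with the block 1, 24, 9 and 0. Phf19, with as few as 22 counts, had the widest intervals.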
